A study of Mus musculus with 2 samples.

Results

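The insulin-like growth factor (IGF) binding proteins were read together with their ligand and receptors in injured mouse kidney: Igfbp1 to Igfbp7, Igf1, Igf1r and Igf2r, 10 of the 18194 genes named on the array. Members were taken by name, as every probe set to which the platform annotation gives that gene symbol and no other, which gave 27 of 45101 probe sets. The design compares EST KO with wild-type kidney after injury, where EST stands for the estrogen sulfotransferase encoded by Sult1e1, which attaches sulfate to estrogens. All mice were C57BL/6 males that had undergone 30 min of warm ischemia of both kidneys and were killed 24 h later, a model of acute kidney injury (AKI). The treatment protocol gives an age of 8 weeks, in a sentence that names the wild-type mice. The WT AKI pool held 180 mg of tissue from 3 mice and the EST KO AKI pool 124 mg from 6 mice, and each pool was read on 1 array. There is therefore no replicate and no test, the spread between mice is unknown, and both groups are injured, so no value compares injured with uninjured kidney.

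IGF1 signals growth and survival through its tyrosine kinase receptor, Igf1r, while Igf2r, which is also the cation-independent mannose 6-phosphate receptor, takes IGF2 to the lysosome for breakdown. The IGF binding proteins hold IGFs in the circulation and in the space around cells, and proteases that cut them set the IGF free. Igfbp4 is known mainly as an inhibitor of IGF action that is cut by the pappalysin Pappa. Igfbp7 binds IGFs weakly, and its protein is measured in urine together with TIMP2 as a sign of acute kidney stress.

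Igfbp4 stood apart from the other members: it was the only measured member at least 2-fold from the WT pool, and all 6 of its probe sets were higher in the EST KO pool. The promoters of 3 binding protein genes are shown as context for the values that follow: Igfbp4, on which the comparison turns, Igfbp7, another measured binding protein, and Igfbp1, an insulin-responsive gene that did not reach background here. Each line gives the 250 bases before the RefSeq gene start, 5′ to 3′ on the gene's strand (RefSeq, GRCm38.p6). Capitals mark TATAAA in Igfbp4, the cores of the insulin response element (CAAAACA and, on the other strand, CAAAATA) in Igfbp1, and GGGCGG, or its reverse complement, in Igfbp7.
Igfbp4 (chr11:99040994-99041243, + strand): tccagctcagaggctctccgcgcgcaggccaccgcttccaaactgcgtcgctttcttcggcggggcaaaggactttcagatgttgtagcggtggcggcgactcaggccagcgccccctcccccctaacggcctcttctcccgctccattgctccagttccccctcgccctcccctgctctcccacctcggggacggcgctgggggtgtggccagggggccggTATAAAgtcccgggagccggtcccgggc
Igfbp1 (chr11:7197537-7197786, + strand): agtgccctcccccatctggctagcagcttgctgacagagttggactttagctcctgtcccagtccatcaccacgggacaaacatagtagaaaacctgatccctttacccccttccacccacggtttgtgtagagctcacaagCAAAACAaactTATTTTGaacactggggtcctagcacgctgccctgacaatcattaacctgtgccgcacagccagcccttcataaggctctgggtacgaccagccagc
Igfbp7 (chr5:77408046-77408295, - strand): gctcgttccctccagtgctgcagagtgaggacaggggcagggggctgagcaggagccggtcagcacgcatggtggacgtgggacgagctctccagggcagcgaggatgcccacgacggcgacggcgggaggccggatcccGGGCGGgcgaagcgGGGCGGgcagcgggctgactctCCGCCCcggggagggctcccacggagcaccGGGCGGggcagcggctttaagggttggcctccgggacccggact

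On both strands, TATAAA was found in 12.4% of all 32851 promoter windows of this length and, among 11 windows of the 10 members, in those of Igfbp4 and Igfbp6. In Igfbp4 its first base lies 28 bases before the start. The GC box GGGCGG was found in 32.7% of all windows and in Igfbp2, Igfbp7, Igf1r and Igf2r, with 4 matches in Igfbp7. The FOXO-type core CAAAACA was found in 5.56% of windows and its variant CAAAATA in 3.95%. Among members both lie only in Igfbp1, starting 108 and 97 bases before the gene start and on opposite strands, and 0.381% of all windows hold both. The palindromic estrogen response element, GGTCA and its reverse complement with 3 bases between, was in 0.0639% of windows and in none of the members'. GGTCA alone, which the palindrome contains, was in 35.2% of windows and in Igf1, Igf1r, Igf2r, Igfbp2, Igfbp6 and Igfbp7. A match describes these letters only.

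Values are linear intensities as deposited, given as WT then EST KO. Taste, vomeronasal and olfactory receptors and the keratin-associated proteins, families with little expression in kidney, gave the background: the 95th percentile of their 129 probe sets, 676.1 on the WT array and 638.3 on the EST KO array. Each gene is represented by its brightest probe set, by the mean of both arrays, and was called measured if that set exceeded background in at least 1 pool. Values below background were set to it before a ratio was taken, so such a fold is a lower bound. Intensities of different probe sets are not comparable as levels, so no member is ranked above another by brightness. Of the 10 members, 6 were measured: Igfbp3, Igfbp4, Igfbp5, Igfbp7, Igf1r and Igf2r. Sult1e1 read 472.7 and 17.2, below background in both pools, so its values do not check the genotype label. The treatment protocol names liver for the EST KO pool where the other labels name kidney; the kidney tubule gene Umod read 25568 and 22735, and the liver gene Alb lay below background in both pools (487.9 and 522.3). Of the 4 measured hepatocyte genes, Ttr (1716 and 11957) and Cps1 (730.7 and 811.7) were higher in the EST KO pool, and Apob (778.6 and 475.1) and Fgb (1284 and 7.5) were lower.

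**Figure D1:**
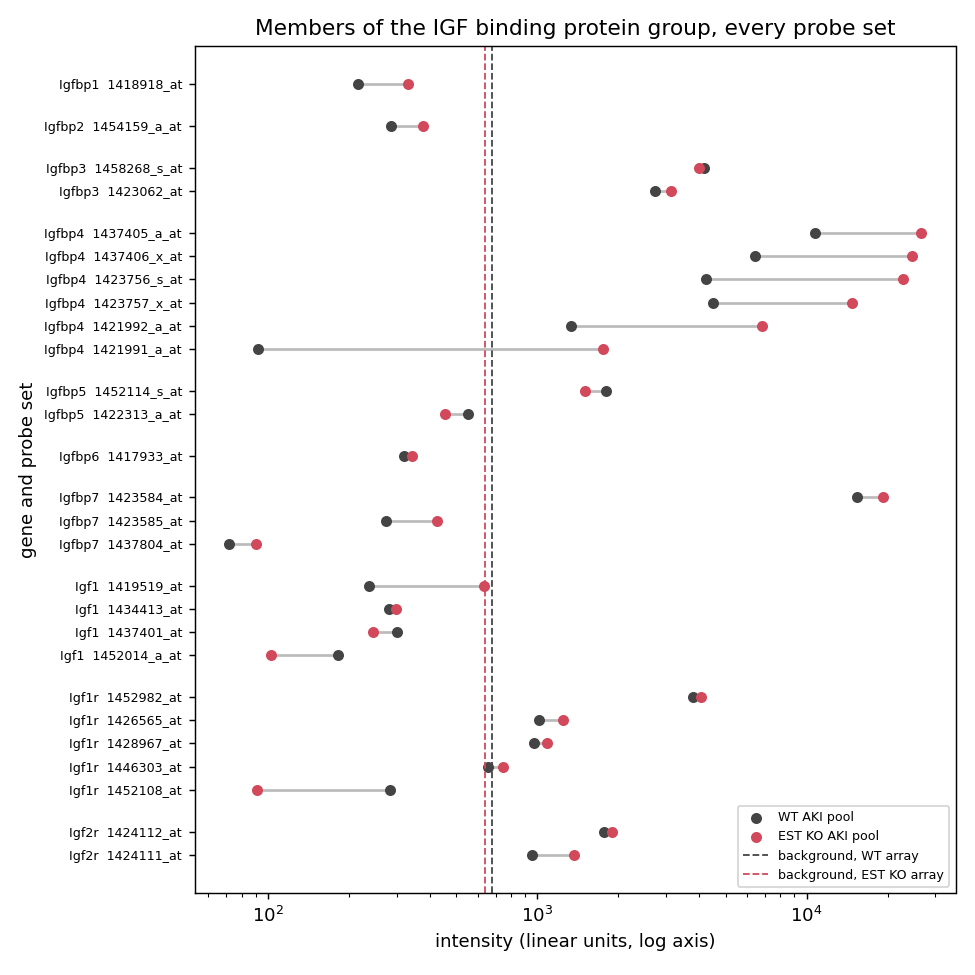
Intensity (log axis) of every probe set of the 10 genes in the WT AKI pool (grey) and the EST KO AKI pool (red), 1 array each, with each array's background as a dashed line. All 6 Igfbp4 probe sets lie to the right in the EST KO pool, by at least 2.48-fold as deposited, whereas no other probe set above background in both pools differs by more than 1.44-fold; 11 of the 27 probe sets lie below background in both pools.

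Igfbp4 was read by 6 probe sets designed on 3 target sequences. The brightest read 10739.7 and 26603, a 2.48-fold higher intensity in the EST KO pool (log2 ratio 1.31), and the probe set on the same target read 6446 and 24555 (3.81-fold). On the second target, the probe sets read 4242 and 22897 (5.40-fold) and 4497 and 14735 (3.28-fold). Every reading of these targets was thus higher in the EST KO pool, with the smallest ratio at the brightest probe set. On the third target, the probe sets read 1332 and 6809 (5.11-fold) and 91.7 and 1758, the former below background, so that the last fold is at least 2.60. The mean log2 ratio over the 6 probe sets was 1.85 ± 0.48 (SD over probe sets, which share their arrays and targets and are no biological replicates; the last one enters at its bound). The highest intensity of any probe set was 39386 on the WT array and 38640 on the EST KO array.

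Among 1663 genes that had at least 2 probe sets exceeding background in each pool, the log2 ratios of the 2 brightest differed with an SD of 0.392, and 95% of genes differed by less than 0.808. The Igfbp4 ratio of 1.31 at its brightest probe set is larger than that probe-level spread. The probe-level spread is the disagreement between 2 probe sets of a gene and not the error of 1 ratio, so it serves as a rough yardstick only. The spread between mice cannot be measured with 1 pool per genotype. Of 7480 measured genes, at least 111 had a higher log2 ratio than Igfbp4, at least because genes under background in the WT pool enter at their lower bound. At least 2-fold higher were 226 genes, 3.02% of those measured, and at least 2-fold lower 105 genes (1.40%), against 1 and 0 of the 6 measured members. Of 72 genes with at least 5 probe sets above background in at least 1 pool, Igfbp4 was the only one with every such probe set at least 2-fold higher, and none had every one at least 2-fold lower. This count was chosen after the Igfbp4 values were seen. All 6 Igfbp4 probe sets carry a suffix (_a_at, _s_at or _x_at) by which the array maker marks sets that can read several transcripts of a gene or other genes as well. With only the _a_at sets kept, the ratio stayed at log2 1.31, since the brightest set is one of them; without all suffixed sets no Igfbp4 value is left.

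Igfbp7, which endothelial and stromal cells are known to make, read 15389.6 and 19156 at its brightest probe set, 1.24-fold higher in the EST KO pool (log2 0.32). Neither of its dimmer probe sets reached background (274.8 and 424.7 for the first, 71.7 and 90.4 for the second). The log2 ratio of 0.32 is smaller than the probe-level spread, which is not the error of 1 ratio. Timp2, whose protein is read in urine with IGFBP7, read 935.6 and 975.4 (1.04-fold higher). The Timp2 probe sets did not go one way: another read 295.6 and 1334, at least 1.97-fold higher, and a further set read 738.7 and 661.8, 1.12-fold lower.

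Igfbp3, the main IGF carrier of the circulation, read 4152 and 3994 at its brightest probe set, 1.04-fold lower in the EST KO pool. Its other probe set read 2731 and 3138, 1.15-fold higher, so Igfbp3 has no settled direction. Both values lie within the probe-level spread. Igfbp5, a binding protein that attaches to matrix, read 1801 and 1505, 1.20-fold lower (log2 −0.26). Its dimmer probe set, 550.5 and 454.3, lay below background in both pools. Of the measured members, only Igfbp5 was lower in the EST KO pool under all the ways of processing that gave it a value, from −0.28 to −0.21 on the log2 scale. All these Igfbp5 values rest on the same probe set and the same arrays, and they lie within the probe-level spread.

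The receptors differed little between the pools. Igf1r read 3781 and 4051 at its brightest probe set, 1.07-fold higher in the EST KO pool. The other Igf1r probe sets above background read 1018 and 1249.8 (1.23-fold), 969.8 and 1089 (1.12-fold), and 653.7 and 748.3 (at least 1.11-fold, the WT value being below background). All 4 were thus higher in the EST KO pool, with log2 ratios between 0.10 and 0.30, although the ratio of the brightest set turned to −0.07 after quantile normalization. The remaining Igf1r probe set, at 284.4 and 91.1, did not reach background. Igf2r read 1773 and 1890.1 (1.07-fold higher) and 954.1 and 1372 (1.44-fold higher) at its 2 probe sets. A further probe set annotated to both Airn and Igf2r was left out by the rule; it read 24.5 and 42.7, below background.

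**Figure D2:**
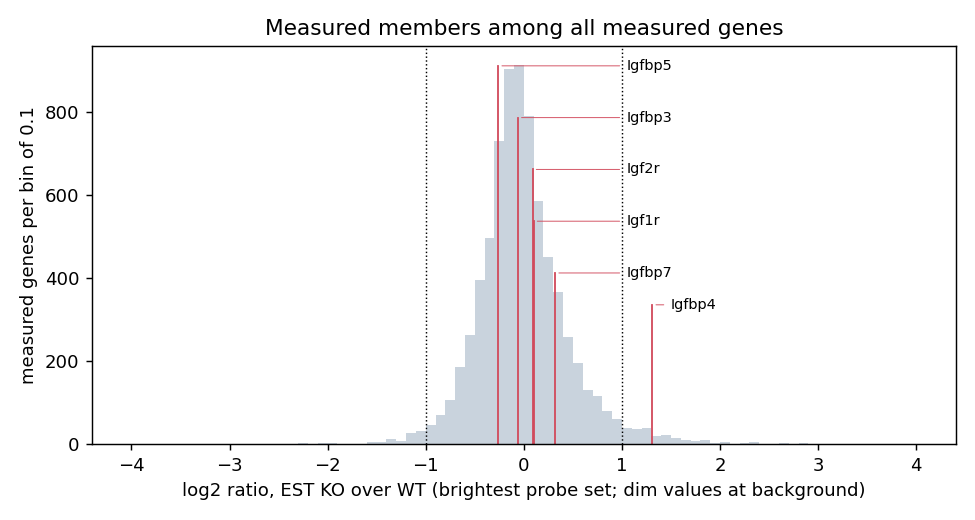
Number of measured genes (7480 in all) by log2 ratio of EST KO over WT in bins of 0.1, with the 6 measured members marked by red lines and 2-fold differences by dotted lines. Igfbp4 lies at 1.31, beyond the 2-fold line, and the other 5 lie between −0.26 and 0.32 in the body of the distribution.

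Over the 6 measured members, 4 had higher and 2 had lower values in the EST KO pool, and the median log2 ratio was 0.10. Over all measured genes 43.6% had higher and 54.6% lower values (median −0.05). At least 1.5-fold higher was 1 member, Igfbp4, against 8.46% of measured genes, and no member was 1.5-fold lower, against 7.43%. With a count this small, the members as a group are not set apart from the background by these shares. The other 5 measured members lay within 1.5-fold of the WT pool. Of their ratios, that of Igfbp7 was exceeded in size by 39.4% of measured genes and that of Igfbp3 by 86.8%, against 1.93% for Igfbp4.

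The other 4 members lay below background in both pools and have no fold. Igfbp1, which liver makes under fasting and FOXO control, read 215.7 and 331.1, Igfbp2, a carrier with an integrin-binding sequence, 285.5 and 376.5, and Igfbp6, which prefers IGF2, 320.0 and 343.3. Igf1, the ligand, read 237.5 and 632.6 at its brightest probe set, the latter just under the EST KO background of 638.3. The remaining 3 gave 280.5 and 299.4, 301.9 and 245.5, and 181.3 and 102.1, so 2 of the 4 were nominally higher and 2 lower. With background at the 75th percentile of the silent families (348.1 and 325.8), all 10 members passed in at least 1 pool. For Igf1 the EST KO value was then higher by at least 1.82-fold and for Igfbp2 by at least 1.08-fold, while Igfbp1 and Igfbp6 had no order, since their EST KO values lay under the WT background.

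Other genes that bind IGFs or cut or guard the binding proteins were read from a list of 15. Of the 7 measured, 2 were higher and 5 lower in the EST KO pool, with a median of −0.18. Htra1, a secreted serine protease with an IGF binding protein-like domain, read 3151 and 6411, 2.03-fold higher. Its other probe set read 527.6 and 1000.2, at least 1.48-fold higher. The log2 ratio of Htra1, 1.02, fell under 2-fold with a pseudocount (0.88), the mean of probe sets (0.79), quantile normalization (0.84) or the trend removed (0.93). Htra1 was the only gene of this list at least 1.5-fold apart. Igf2, the second IGF ligand, read 576.1 and 725.3, at least 1.07-fold higher. Pappa, the protease known for cutting Igfbp4, lay below background in both pools (531.2 and 336.1), as did its relative Pappa2 (289.3 and 364.3) and its inhibitor Stc1 (471.1 and 514.5). A further pappalysin inhibitor, Stc2, read 1098 and 879.9, 1.25-fold lower. The proteases Adamts1 (1.13-fold), Ctsd (1.30-fold), Mmp2 (1.14-fold) and Mmp9 (at least 1.09-fold) were lower as well.

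The steps after the receptor showed few large differences. Of 11 measured receptors and adaptors, 5 had higher and 6 lower values (median −0.01), and none was 1.5-fold apart. The largest ratios there were those of Gigyf1, which binds the adaptor Grb10 (1.16-fold lower), Shc1, an adaptor to the Ras pathway (1.15-fold lower), Socs3, a feedback inhibitor of cytokine signalling (1.11-fold higher), and Igf2bp3, an RNA-binding protein (1.09-fold higher). With _s_at and _x_at probe sets left out, Socs3 was at log2 −0.41. Of 14 measured genes of the PI3K, AKT, FOXO and mTOR list, 5 had higher and 9 lower values (median −0.11). At least 1.5-fold higher were 2 of them and at least 1.5-fold lower 1, too few to be set apart from the same shares. Mtor, the growth-controlling kinase, read 956.2 and 1808, 1.89-fold higher, but its other probe set above background read 1078 and 1171, 1.09-fold higher. Rheb, the GTPase that activates mTOR, read 3640.4 and 6293, 1.73-fold higher. Eif4ebp1, a translation inhibitor that mTOR switches off, read 4196 and 2573, 1.63-fold lower, and the kinase Akt1 read 2565 and 1764, 1.45-fold lower.

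All 5 measured genes of the growth hormone axis, which drives Igf1 in liver and other tissues, were nominally higher in the EST KO pool, against 43.6% of all measured genes, with a median of 0.21. Ghr, the growth hormone receptor, read 3029 and 5214 at its brightest probe set, 1.72-fold higher, and its other probe sets were 1.67-fold and 1.27-fold higher. Socs2, a feedback inhibitor that growth hormone induces, read 1291 and 1994, 1.55-fold higher. Ghrhr was 1.15-fold and Cish 1.08-fold higher, and the kinase Jak2, which the receptor activates, read 1285 and 1297, a log2 ratio of 0.01. No gene of this list was 2-fold apart.

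Of 12 measured FOXO and insulin responsive genes, 7 had higher and 5 lower values (median 0.06), and 3 were at least 2-fold higher, against 3.02% of all measured genes. Those 3 were Pck1 and G6pc, enzymes of gluconeogenesis, at 701.5 and 4396 (6.27-fold) and at 665.3 and 1569.8 (at least 2.32-fold), and Pdk4, a brake on glucose oxidation, at 8302 and 17128 (2.06-fold). With each array's background added as a pseudocount, the log2 ratios were 1.87 for Pck1 (against 2.65), 0.72 for G6pc and 0.98 for Pdk4, and that of Pdk4 was 0.89 after quantile normalization and 0.91 with the trend removed. Cited2, a transcriptional coregulator, read 1452 and 937.8, 1.55-fold lower. The proximal tubule, where Pck1 and G6pc are known to be expressed in kidney, is described by its markers below.

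Among the CCN proteins, once counted as IGF binding protein relatives, Ccn2 (connective tissue growth factor) read 8951 and 4101, 2.18-fold lower in the EST KO pool, and Ccn1 read 3619 and 4215, 1.16-fold higher. Htra3, a relative of Htra1, was 1.08-fold lower. Together the 6 lists held 50 measured genes, of which 24 were higher and 26 lower, with a 2-fold difference upward in 4 and downward in 1. Over all measured genes, 43.6% had higher and 54.6% lower values, and a 2-fold difference lay upward in 3.02% and downward in 1.40%. The lists' median of −0.01 is set beside −0.05 for all measured genes.

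**Figure D3:**
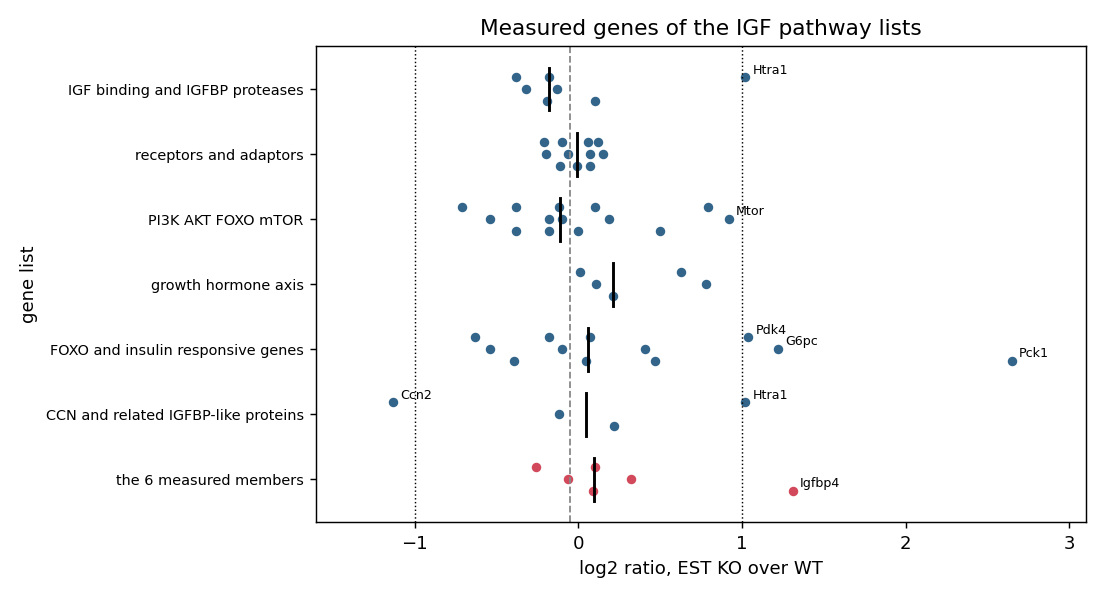
Log2 ratio of EST KO over WT for each measured gene (points) of the 6 pathway lists and for the 6 measured members (red), with list medians as black bars, the median of all measured genes as a dashed line and 2-fold differences as dotted lines. Most genes lie within 2-fold; Igfbp4, Htra1, Pdk4, G6pc and Pck1 lie to the right of it and Ccn2 to the left.

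Markers of kidney cell types differed between the pools as well, and in whole tissue fewer cells of a type and less RNA per cell cannot be told apart. The counts below stand beside 43.6% higher and 54.6% lower among all measured genes (median −0.05). Lists with few measured genes are too short to be set apart from these shares. All 8 proximal tubule markers were higher in the EST KO pool (median 0.77), with summed intensities of 40027 and 76345. All 8 measured endothelial markers of 9 were lower, from −0.75 to −0.09 (median −0.41; summed 12012 and 8999), as were 5 of 6 measured fibroblast and mesangial markers (median −0.48; summed 14169 and 10509). The Igfbp7 ratio of 0.32 and the Igfbp3 ratio of −0.06 lay above the whole range of the endothelial markers, that of Igfbp3 by less than the probe-level spread, whereas that of Igfbp5, −0.26, lay inside it. All 4 measured markers of injured tubule were lower, from −1.41 to −0.39 (summed 86621 and 46964). Those of the loop of Henle and distal tubule were higher in 4 of 5 (median 0.44; summed 33772 and 36974) and those of the collecting duct lower in 2 of 3 measured (median −0.44; summed 10794 and 7714). Macrophage markers were lower in 5 of 6 measured (median −0.29; summed 13824 and 9187) and neutrophil markers in 2 of 2 (median −1.10; summed 4057 and 2087). The podocyte list had 1 measured gene, Podxl, at −0.42 (summed 2373 and 1693), and 2 of the 4 measured hepatocyte genes were higher (median −0.07; summed 5657 and 14320, a sum that Ttr leads). No marker was listed at 0. The proximal tubule markers ranged from 0.18, a lower bound, to 2.61. The Igfbp4 ratio of 1.31 lay inside this range, above the median of 0.77, and was exceeded by Cubn (1.48) and Slc22a6 (2.61). It is the smallest ratio of the 6 Igfbp4 probe sets, and their mean of 1.85 lay above the Cubn value. The highest marker of the loop of Henle and distal tubule stood at 1.19. The Igfbp7 ratio of 0.32 lay inside the proximal tubule range, below the median of that list. The part of cell composition in the member ratios was not tested.

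Of the 7 binding protein genes, 4 lie beside another in the mouse genome. Igfbp1 and Igfbp3 are neighbours on chromosome 11, and Igfbp2 and Igfbp5 on chromosome 1. In each pair 1 gene was measured (Igfbp3 and Igfbp5) and the other lay below background. The genes on either side of Igfbp4, on chromosome 11, were Top2a (175.3 and 207.7) and Tns4 (382.0 and 316.5), neither of which reached background. Tensin genes, which code for focal adhesion proteins, lie next to or near several members: Tns3, beside Igfbp3, read 4819 and 3000.3, 1.61-fold lower in the EST KO pool, Tns1, near Igfbp5, read 5561 and 6380.1, 1.15-fold higher, and Tns2, near Igfbp6, read 518.7 and 875.7, at least 1.30-fold higher.

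**Figure D4:**
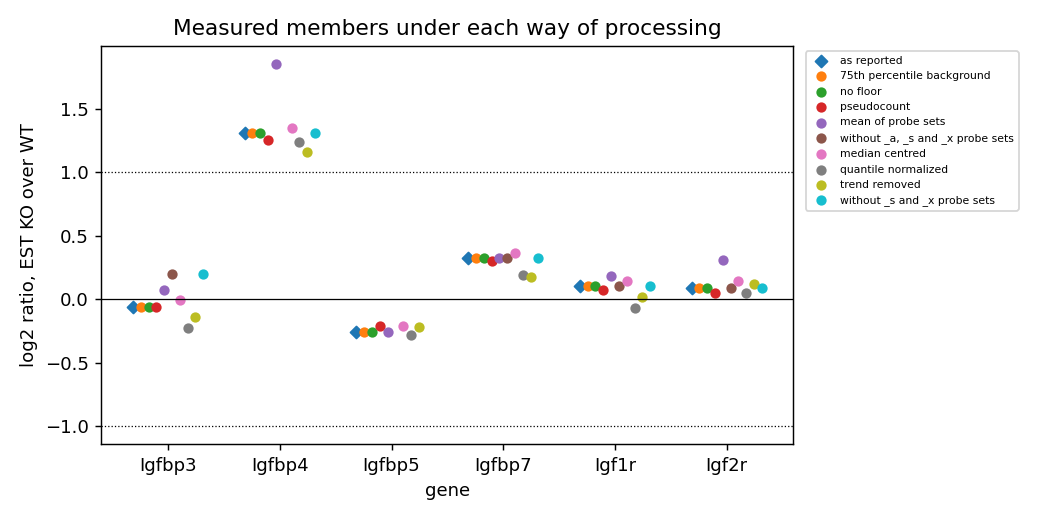
Log2 ratio of EST KO over WT of the 6 measured members as reported (diamonds) and under each other way of processing (circles). Igfbp4 stays between 1.16 and 1.85, above the dotted 2-fold line, in every setting that gave it a value, and Igfbp3 and Igf1r have points on both sides of 0.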

How the data were processed

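Linear intensity values for each probe set were used as the authors deposited them: from the values, both arrays had been scaled to a mean of 500.0 without the lowest and highest 2%. RNA was Trizol-extracted and hybridised as biotinylated cRNA to an Affymetrix array, per the labels' protocols; the summarisation method is not given in the sources used here. Of the probe sets, 34958 had 1 gene symbol, 932 several and 9211 none. For 34754 the symbol was taken from RefSeq (GRCm38.p6) through the Entrez ID, whether or not that changed it. Promoter windows existed for all 10 members. With 1 array per group no test was made. The named genes are all members, up to 4 measured genes per pathway list with the largest ratios, every measured IGF binding list gene, Timp2, Sult1e1, and the brightest cell type markers, most of which are given as list values only; other names were chosen after their values were seen. Members and lists were chosen with earlier results of these data known. Ratios were computed with Python 3.11.15, numpy 2.4.6 and pandas 2.3.3, tested on simulated data, and repeated under 8 listed alternatives and 1 added later. The simulation planted differences larger than 2-fold with less noise than the probe-level spread, so it checks the code and not the error of these data.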

Additional observations from a re-analysis of the deposited data

How the results depend on the processing

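With 1 array per pool the precision of every value is limited by the number of arrays, and no replicate can be left out. No paired analysis was possible because each group has 1 array. Of 660 recomputed values, 629 stayed within a set limit, and none that was 2-fold apart changed sign. The limit was the probe-level spread for single genes and 1.5 times for counts. For list medians it was that spread divided by the square root of the number of measured genes in the list. The Igfbp4 log2 ratio ran from 1.16 with the level-dependent trend removed to 1.85 with the mean of its probe sets, against 1.31. Without all suffixed probe sets neither Igfbp4 nor Igfbp5 has a value, so 0 members were 2-fold higher there. With the 75th percentile background 10 members were measured. All genes at least 2-fold higher numbered 124 with a pseudocount (each array's background added) against 226; those lower numbered 43 with it, 204 with the 75th percentile background and 197 with no floor, against 105. The median of the PI3K, AKT, FOXO and mTOR list was 0.00 with the 75th percentile background and 0.06 with the mean of probe sets, and that of FOXO and insulin responsive genes 0.24 with no floor and −0.02 with the mean of probe sets. The CCN list ran from −0.12 without suffixed sets to 0.19 without _s_at and _x_at sets, and receptors and adaptors from −0.10 to 0.03, so these 4 medians have no settled sign. Pathway genes at least 2-fold higher numbered 1 with a pseudocount and 2 after quantile normalization or trend removal, against 4. The setting that drops _s_at and _x_at sets was chosen after seeing the data. Why these values moved was not tested.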
